A study of Homo sapiens with 6 samples.

Results

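BMF and 9 other genes of the BCL2 family were followed in PANC-1 cells, a human line grown from a pancreatic ductal adenocarcinoma, after silencing of METTL16. The 10 genes were found by symbol in the deposited table of 58735 genes. They are the BH3-only genes BMF, BBC3, BCL2L11, PMAIP1, BID and BAD, the effector genes BAX and BAK1, and the pro-survival genes BCL2L1 and MCL1. BMF was chosen by its fold change in the comparison described here, so its values are given as a description with no p-value. It stayed in the fit over all genes, and counts over the 10 genes include it. The other genes were taken in by family membership, when earlier results of these data were already known. RNA-seq libraries came from 3 samples that received a control siRNA, called si-NC, and 3 that received an siRNA directed at METTL16, a methyltransferase that places m6A on RNA, called si-METTL16. All 6 samples were PANC-1 cells kept in the same serum medium, with no drug and no death stimulus named in the labels. The study's methods call the samples biological triplicates and call the cells stably transfected, whereas the labels name siRNA, and the time from transfection to harvest was not given in the sources used here. The label field for transfection reads WT for the control samples, whose titles read si-NC.

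BCL2 family proteins decide whether the mitochondrial outer membrane is opened, the step that commits a cell to intrinsic apoptosis. Pro-survival members such as BCL-XL and MCL1 hold the effectors BAX and BAK in check, and BH3-only proteins either occupy the groove of the pro-survival members or activate the effectors directly. Pancreatic ductal adenocarcinoma is known for high BCL-XL and MCL1 and for resistance to apoptosis. BH3-only genes are controlled largely through transcription by stress pathways, whereas BID, BAD, BAX and BAK proteins are mainly switched by cleavage, phosphorylation or shape change, which RNA levels do not show.

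The study lists a control siRNA and 3 siRNAs against METTL16, and their target sequences are given because any match to a family gene bears on how its RNA is read. Each line is the sense strand of the target from 5′ to 3′. Capitals mark the heptamer that pairs with bases 2 to 8 of the guide strand, the seed.
si-NC: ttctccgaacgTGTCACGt
si-METTL16-1: ccttgagactcAACTATAt
si-METTL16-2: ccgcctagttcTGTTAATa
si-METTL16-3: ccaccaagtaaGCGAAGAa
On the minus strand of hg38, the first METTL16 target lay at chr17:2477757-2477775 in exon 3 of 10, the next at chr17:2464302-2464320 in exon 6 and the last at chr17:2420883-2420901 in exon 9, all in coding sequence. Among 19061 reference transcripts of GENCODE release 44, 1 for each gene, each of these targets was found whole in METTL16 and in no other gene. None of the 4 heptamers occurred in the BMF transcript, and the longest run that BMF shared with any of the targets was 8 bases. The heptamer of si-METTL16-2 occurred once in BCL2L11 and once in BAD, and no other heptamer occurred in a member. That heptamer was present in 22.2% of all the reference transcripts, against 14.8% for si-METTL16-1, 8% for si-METTL16-3 and 6.37% for si-NC. The titles number the silenced samples from 1 to 3, as the siRNAs are numbered, and whether a number stands for an siRNA or for a culture was not given in the sources used here.

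Total counts per sample ran from 15725298 to 18054436. METTL16 read 91.5, 96.7 and 100.6 CPM (counts brought to a common library size with edgeR's TMM factors) in si-NC and 34.8, 33.9 and 34.9 in si-METTL16, so the silenced samples held 35.9% of the control level. Its log2 fold change was -1.48 (SE 0.07, Benjamini-Hochberg adjusted p = 8.3e-05 by edgeR's quasi-likelihood test), and every log2 fold change below is si-METTL16 over si-NC from the same fit. Epithelial and PANC-1 markers were read in all samples, with KRT8 at 2139 CPM and VIM at 1810 CPM on average in si-NC. Of the 8 such markers, KRT8, KRT18, EPCAM and VIM were not called, and KRT19 (-1.40, adjusted p = 0.00111), CDH1 (-1.09, adjusted p = 0.00594), KRT7 (-0.84, adjusted p = 0.0117) and SOX9 (-0.25, adjusted p = 0.00987) fell in si-METTL16 by edgeR, and their part in the members' results was not tested. The acinar, endocrine, immune and endothelial markers PRSS1, CPA1, INS, GCG, PTPRC and PECAM1 had at most 5 counts in any sample. A gene was called when its adjusted p was under 0.05, and 5418 of the 15089 genes tested were called. In total RNA from a whole culture, fewer cells that express a gene and less of its RNA per cell cannot be told apart.

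Among the members taken in by family, BBC3, BCL2L1 and MCL1 were called, where 35.9% of all genes tested were called. With BMF the count was 4 of 10, but the fold change of BMF was the ground for choosing it. The pro-survival genes BCL2L1 and MCL1 were higher in si-METTL16, against a background of 18.4% of genes called higher. The BH3-only gene BBC3 was lower, against a background of 17.5% called lower, as was BMF, which was chosen for being low. In 6 of the 10 genes the si-NC and si-METTL16 samples did not overlap in CPM, against 50.9% of all genes tested. The median log2 fold change was -0.15 over the 10 genes and -0.00 over all genes tested. All 10 genes passed the filter on low counts. These shares describe a list that holds BMF for its fold change, and nothing is read from them about the family.

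**Figure D1:**
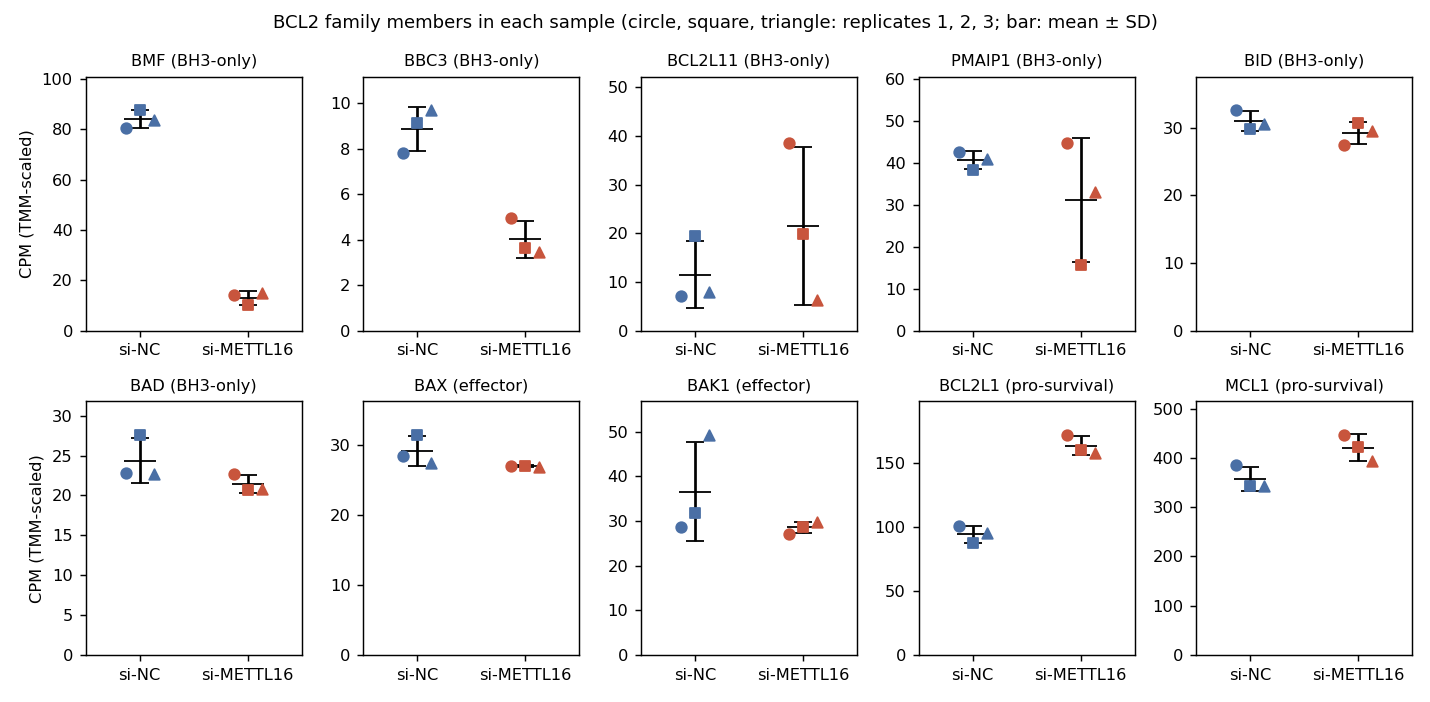
CPM of the 10 genes in each sample, with circles, squares and triangles for replicates 1, 2 and 3 and bars for the mean ± SD of 3 samples. BMF separates at 80.7 to 87.7 CPM against 10.0 to 14.9 CPM and BCL2L1 at 87.3 to 100.2 against 158 to 172, while BCL2L11 spreads from 6.23 to 38.6 within si-METTL16 alone.

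BMF encodes a BH3-only protein that is held on the actin and myosin motor complex through a dynein light chain and that binds pro-survival proteins once released. The gene (ENSG00000104081) occupies chr15:40087890-40108892 on the minus strand of GRCh38. It was counted 1363, 1488 and 1469 times in the si-NC samples and 229, 156 and 268 times in the si-METTL16 samples. In CPM these were 80.7, 87.7 and 83.8 against 14.0, 10.0 and 14.9, so the lowest control was more than 5 times the highest silenced sample. The mean went from 84.0 ± 3.52 (SD, n = 3) to 13.0 ± 2.60 CPM (SD, n = 3), which is 15.4% of the control level. The log2 fold change was -2.69 (SE 0.15, 95% interval -3.05 to -2.34), the value by which BMF was chosen, and it was the 28th lowest of the 15089 genes tested. With any 1 of the 6 samples dropped, it ran from -2.81 to -2.54. An antisense gene, BMF-AS1, shares 461 exonic bases with BMF and was listed at 0 counts in all samples.

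The 250 bases before the start of BMF and of BCL2L1 are shown because these genes had the lowest and the highest log2 fold change among the members called. They are RefSeq sequences on GRCh38.p14, each read 5′ to 3′ on the minus strand and ending at the base before the start. Capitals mark matches, on either strand, to a CCAAT box (spelled as its name), a GC box (GGGCGG), an E-box (CACGTG), a forkhead motif (GTAAACA) or a CRE (TGACGTCA).
BMF chr15:40108880-40109129: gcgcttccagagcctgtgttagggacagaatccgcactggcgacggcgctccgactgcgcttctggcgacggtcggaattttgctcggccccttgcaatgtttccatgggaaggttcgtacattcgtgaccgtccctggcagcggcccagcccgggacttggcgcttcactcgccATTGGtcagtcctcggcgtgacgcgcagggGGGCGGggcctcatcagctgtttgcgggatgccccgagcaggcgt
BCL2L1 chr20:31723964-31724213: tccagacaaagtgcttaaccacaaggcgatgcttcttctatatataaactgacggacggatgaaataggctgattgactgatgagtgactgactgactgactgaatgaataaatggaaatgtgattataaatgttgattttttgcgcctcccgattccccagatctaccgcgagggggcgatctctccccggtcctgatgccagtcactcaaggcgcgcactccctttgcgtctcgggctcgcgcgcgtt
The BMF stretch had a GC content of 65.2% and held 1 GC box and 1 CCAAT box, on opposite strands. The BCL2L1 stretch had a GC content of 50% and none of the 5 motifs. Of 34943 RefSeq promoters read over the same 250 bases, 42.5% held a GC box, 32% a CCAAT box, 6.32% an E-box, 2.98% the forkhead motif and 1.63% a CRE. RefSeq lists a further start for each gene, BMF at chr15:40106967-40107216 and BCL2L1 at chr20:31722869-31723118 over the same window, and none of the motifs was found in either. The table does not separate the transcripts that begin at the different starts. The matching window of BBC3 (chr19:47232668-47232917) held 1 E-box and 1 CCAAT box, and that of BCL2L11 (chr2:111120664-111120913) held 3 GC boxes, 1 CCAAT box and 1 forkhead motif. These are letter matches, not measured binding.

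BBC3 encodes PUMA, a BH3-only protein that binds every pro-survival member and is induced by p53 and by FOXO factors. BBC3 (ENSG00000105327, chr19:47220822-47232766, minus strand) had 132, 155 and 170 counts in si-NC and 81, 57 and 62 in si-METTL16. These counts correspond to 7.81, 9.13 and 9.70 CPM against 4.94, 3.65 and 3.45 CPM. The groups did not overlap, although the gene had few reads. BBC3 fell to 45.2% of its control level, with a log2 fold change of -1.15 (SE 0.19, 95% interval -1.58 to -0.71, adjusted p = 0.00337 by edgeR's quasi-likelihood test). It remained called when any of the 6 samples was left out, with values from -1.32 to -1.04. Of the BH3-only genes other than BMF, BBC3 alone was called.

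BCL2L11 encodes BIM, the BH3-only protein that shares with BMF a dynein light chain binding motif and that kills cells deprived of growth factors. Its counts (ENSG00000153094, chr2:111119378-111168447, plus strand) were 120, 330 and 140 in si-NC and 633, 310 and 112 in si-METTL16. As CPM these were 7.10, 19.4 and 7.99 against 38.6, 19.9 and 6.23. The highest and the lowest of the 6 values were thus in the same group, and the groups overlapped. The largest value exceeded the smallest 2.74 times within si-NC and 6.19 times within si-METTL16. The spread of log2 CPM within groups was wider than in 98.7% of genes tested. The log2 fold change was 0.90 (SE 0.65, 95% interval -0.62 to 2.43, adjusted p = 0.316 by edgeR's quasi-likelihood test). It ran from 0.17 without si-METTL16 replicate 1 to 1.51 without si-NC replicate 2. An antisense lncRNA, MIR4435-2HG, shares 727 of the 6742 exonic bases of BCL2L11 and had 4934 counts over the 6 samples, against 1645 for BCL2L11. MIR4435-2HG rose by 0.64 on the log2 scale (adjusted p = 0.00337 by edgeR), and whether reads were counted by strand was not given in the sources used here.

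PMAIP1 encodes NOXA, a BH3-only protein that binds MCL1 and A1 and promotes the breakdown of MCL1. PMAIP1 (ENSG00000141682, chr18:59899948-59904306, plus strand) read 42.5, 38.4 and 40.9 CPM in si-NC and 44.7, 15.6 and 33.0 CPM in si-METTL16. The control samples lay close together, whereas the silenced samples reached from above the highest control to less than any control. The log2 fold change was -0.38 (SE 0.33, 95% interval -1.15 to 0.39, adjusted p = 0.398 by edgeR's quasi-likelihood test). It was -0.06 without si-METTL16 replicate 2 and -0.74 without si-METTL16 replicate 1. Its spread within groups was wider than in 91.5% of genes tested. BCL2L11 and PMAIP1 were each highest in si-METTL16 replicate 1, and the lowest silenced sample was replicate 3 for BCL2L11 and replicate 2 for PMAIP1.

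BID, which links death receptors to mitochondria after cleavage by caspase-8, and BAD, which growth factor signalling keeps phosphorylated and bound to 14-3-3 proteins, moved little. BID (ENSG00000015475, chr22:17734138-17774770, minus strand) read 32.6, 29.9 and 30.6 CPM in si-NC and 27.4, 30.6 and 29.5 CPM in si-METTL16. Its log2 fold change was -0.09 (95% interval -0.29 to 0.11, adjusted p = 0.461 by edgeR's quasi-likelihood test). BAD (ENSG00000002330, chr11:64269830-64284704, minus strand) read 22.8, 27.6 and 22.7 CPM in si-NC and 22.7, 20.6 and 20.9 CPM in si-METTL16. The BAD samples did not overlap, by a margin of 22.70 against 22.67 CPM. The log2 fold change of BAD was -0.19 (95% interval -0.45 to 0.07, adjusted p = 0.223 by edgeR's quasi-likelihood test). GPR137, on the opposite strand, shares 404 of the 1708 exonic bases of BAD and had 3502 counts over all samples against 2321 for BAD.

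BAX and BAK1 encode the effectors that form the pore in the outer membrane, and neither was called. BAX (ENSG00000087088, chr19:48954815-48961798, plus strand) read 28.4, 31.5 and 27.4 CPM in si-NC and 27.1, 27.1 and 26.8 CPM in si-METTL16. The silenced samples of BAX had an SD of 0.140 CPM (n = 3) and lay just under the lowest control. The log2 fold change of BAX was -0.11 (95% interval -0.31 to 0.09, adjusted p = 0.355 by edgeR's quasi-likelihood test). BAK1 (ENSG00000030110, chr6:33572547-33580293, minus strand) read 28.6, 31.8 and 49.3 CPM in si-NC and 27.2, 28.7 and 29.7 CPM in si-METTL16. The third control sample stood apart from the other 5 values, which ran from 27.2 to 31.8 CPM. The log2 fold change of BAK1 was -0.36 (95% interval -0.83 to 0.11, adjusted p = 0.201 by edgeR's quasi-likelihood test), and -0.08 without si-NC replicate 3. The processed pseudogene BAK1P1, whose sequence is a near copy, had 40, 40 and 35 counts in si-NC and 8, 17 and 14 in si-METTL16, far fewer than BAK1 itself, and reads between the copies could have been split. BAK1P1 was called lower (log2 fold change -1.51, adjusted p = 0.0107 by edgeR).

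BCL2L1 encodes BCL-XL, the pro-survival protein that restrains BAX and BAK and binds most BH3-only proteins. BCL2L1 (ENSG00000171552, chr20:31664452-31723989, minus strand) had 1693, 1481 and 1661 counts in si-NC and 2820, 2494 and 2835 in si-METTL16. In CPM the values were 100.2, 87.3 and 94.7 against 172, 159.9 and 158. The groups were wide apart compared with the spread in each, 94.1 ± 6.49 (SD, n = 3) against 163 ± 7.61 CPM (SD, n = 3). BCL2L1 rose 1.73-fold, with a log2 fold change of 0.79 (SE 0.07, 95% interval 0.62 to 0.96, adjusted p = 3.55e-04 by edgeR's quasi-likelihood test). It stayed called with each sample left out, from 0.74 to 0.84. The counts are per gene, so the long BCL-XL and the short, pro-apoptotic BCL-XS splice forms are summed in them.

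MCL1 encodes a short-lived pro-survival protein that is required by many tumour cells. MCL1 (ENSG00000143384, chr1:150574551-150579738, minus strand) had the highest FPKM of the 10 genes and read 385, 344 and 342 CPM in si-NC against 447, 422 and 394 CPM in si-METTL16. The lowest silenced sample lay only slightly above the highest control. MCL1 rose 1.18-fold, with a log2 fold change of 0.24 (SE 0.07, 95% interval 0.07 to 0.41, adjusted p = 0.0386 by edgeR's quasi-likelihood test). The call was lost without si-NC replicate 2 (0.21, adjusted p = 0.117 by edgeR) or si-NC replicate 3 (0.21, adjusted p = 0.121), and without si-METTL16 replicate 1 (0.19, adjusted p = 0.108) or replicate 2 (0.23, adjusted p = 0.0942). The intervals for BCL2L1 and MCL1 did not overlap, but the difference between the genes was not tested. ADAMTSL4, on the opposite strand, shares 43 exonic bases with MCL1 and had 705 counts against 39325.

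**Figure D2:**
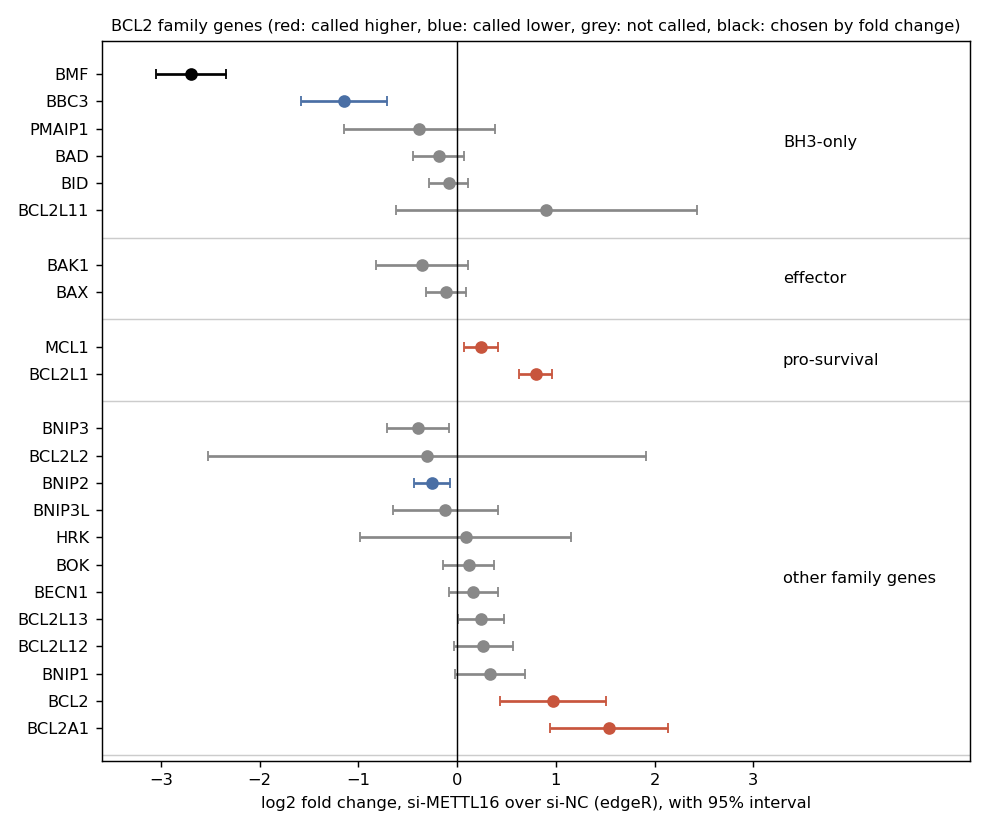
Log2 fold change of si-METTL16 over si-NC with its 95% interval for the 10 members by role and for the 12 other family genes tested, with calls in red (higher) and blue (lower), genes not called in grey and BMF, chosen by its fold change, in black. BMF lies at -2.69 and BBC3 at -1.15, BCL2L1 at 0.79 and MCL1 at 0.24, and the intervals of BCL2L11 (-0.62 to 2.43) and BCL2L2 are the widest.

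**Figure D3:**
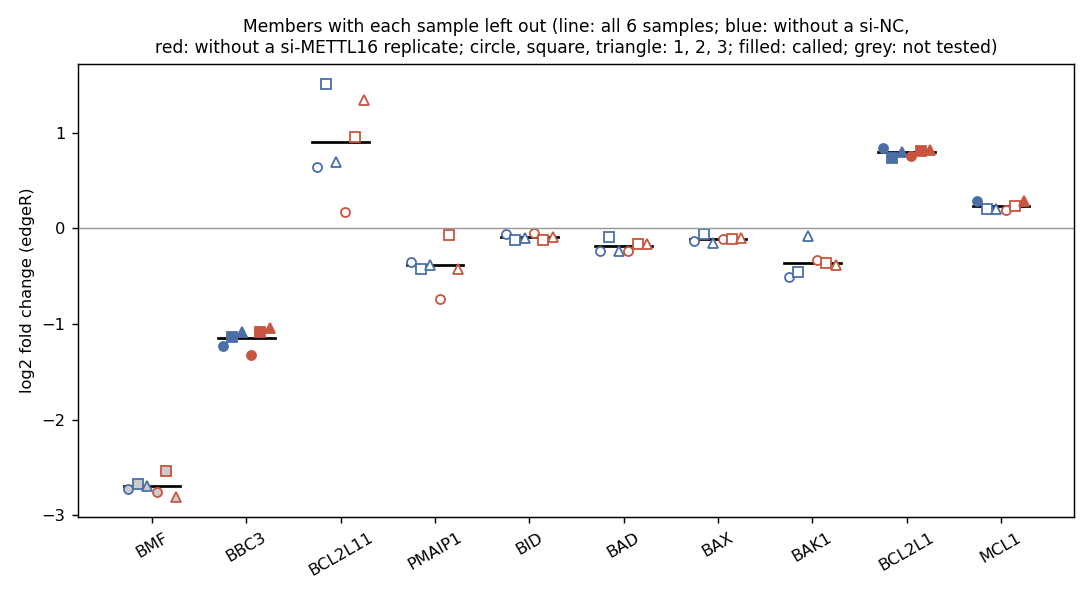
Log2 fold change of each member with 1 sample left out at a time, where the line is the value with all 6 samples and filled symbols are calls. BBC3 (-1.32 to -1.04) and BCL2L1 (0.74 to 0.84) stay called throughout, and MCL1 stays called in 2 of 6. BMF (grey fill, chosen by its fold change, calls not shown) runs from -2.81 to -2.54, and BCL2L11 ranges from 0.17 to 1.51.

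Levels can be set side by side between genes only per length, so the deposited FPKM values were summed by role in each sample. The BH3-only sum was 28.7, 30.4 and 28.8 FPKM in si-NC and 24.2, 15.1 and 18.9 FPKM in si-METTL16. It was lower in every silenced sample, 19.4 ± 4.57 (SD, n = 3) against 29.3 ± 0.981 FPKM (SD, n = 3). Without BMF, which was chosen for being low, the BH3-only sum was 21.9, 23.0 and 21.7 FPKM in si-NC and 23.1, 14.3 and 17.7 FPKM in si-METTL16, and the groups overlapped. BMF made up 23.7, 24.3 and 24.6% of the BH3-only FPKM in si-NC and 4.77, 5.51 and 6.57% in si-METTL16. The BH3-only FPKM that remained in si-METTL16 was mostly PMAIP1 (7.68 ± 3.60, SD, n = 3) and BAD (6.03 ± 0.286, SD, n = 3), against 1.08 ± 0.217 (SD, n = 3) for BMF.

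The pro-survival sum was 54.9, 48.7 and 49.7 FPKM in si-NC and 70.3, 66.4 and 63.4 FPKM in si-METTL16. MCL1 held the larger share, and its FPKM exceeded that of BCL2L1 2.85, 2.92 and 2.68 times in si-NC and 1.93, 1.96 and 1.85 times in si-METTL16. The effector sum was 12.3, 13.7 and 17.6 FPKM in si-NC and 11.5, 12.0 and 12.2 FPKM in si-METTL16. The ratio of pro-survival to BH3-only FPKM was 1.91, 1.60 and 1.73 in si-NC and 2.90, 4.40 and 3.35 in si-METTL16, and this ratio includes BMF. These sums are RNA levels and no test was made over them. The gene lengths implied by counts and FPKM were 1.53 (MCL1) to 2.56 (BID) times the union of GENCODE exons, so the shares between genes depend on lengths that could not be traced. For MCL1 that union, 6222 bases, exceeds the 5188 bases that the gene spans in the deposited table, and the implied length was 9519 bases. With CPM per kilobase of GENCODE exons instead, an alternative chosen after seeing the data, the BH3-only sum was 58.5, 62.3 and 58.5 in si-NC and 49.8, 32.1 and 38.8 in si-METTL16. BMF, chosen for being low, made up 25.3, 25.8 and 26.3% of that sum in si-NC and 5.15, 5.72 and 7.06% in si-METTL16. BMF itself stood at 14.8, 16.1 and 15.4 on this scale in si-NC and at 2.56, 1.84 and 2.74 in si-METTL16. With BMF taken out of the sum, the groups overlapped on this scale too, and si-METTL16 replicate 1 was the highest sample.

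**Figure D4:**
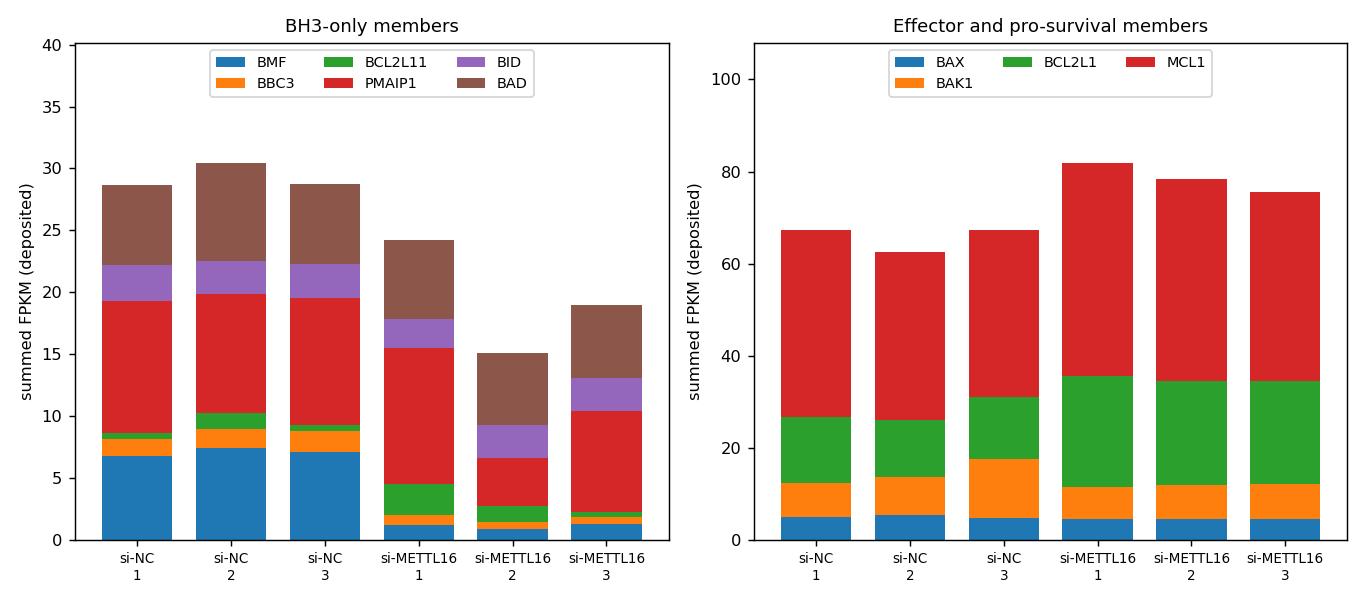
Summed deposited FPKM in each sample, stacked by gene, for the BH3-only genes on the left and the effector and pro-survival genes on the right. The BMF layer shrinks from 23.7 to 24.6% of the BH3-only stack in si-NC to 4.77 to 6.57% in si-METTL16, and the BCL2L1 layer grows from 13.4 to 22.9 FPKM on average.

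Of 16 further genes of the family or with a BH3-like motif, 12 passed the filter. BCL2 and BCL2A1 rose, BNIP2 fell and 9 were not called, where 35.9% of all genes were called, and the median log2 fold change of the 12 genes was 0.14. BCL2A1, which encodes the pro-survival protein A1 and is a target of NF-kB, was scarce, with 33, 25 and 38 counts in si-NC and 96, 100 and 73 in si-METTL16 (log2 fold change 1.54, adjusted p = 0.00356 by edgeR's quasi-likelihood test). BCL2, the founding pro-survival gene, had 61, 50 and 63 counts in si-NC and 135, 76 and 122 in si-METTL16 (log2 fold change 0.97, adjusted p = 0.0148 by edgeR's quasi-likelihood test). In both genes every silenced sample was above every control. The BCL2 call was lost without si-NC replicate 2 (0.87, adjusted p = 0.0519 by edgeR). BCL2L2, which encodes the pro-survival protein BCL-W, had 46, 646 and 218 counts in si-NC and 138, 69 and 537 in si-METTL16. Its spread within groups was wider than in 99.6% of genes tested, and its log2 fold change was -0.31 (adjusted p = 0.824 by edgeR). The readthrough gene BCL2L2-PABPN1 shares 815 of the 4840 exonic bases of BCL2L2 on the same strand. HRK, a BH3-only gene, stood at 9 to 22 counts and had a log2 fold change of 0.08. BOK, a relative of the effectors, had a log2 fold change of 0.12 and the autophagy gene BECN1 one of 0.16, and neither was called.

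BNIP2 fell by 0.26 on the log2 scale (adjusted p = 0.0370 by edgeR's quasi-likelihood test), a call lost when any sample but si-METTL16 replicate 1 was left out (adjusted p from 0.0681 to 0.101 by edgeR). The mitophagy receptor genes BNIP3 (-0.40, adjusted p = 0.0529) and BNIP3L (-0.12, adjusted p = 0.714) were not called by edgeR. Neither were BCL2L12 (0.27), BCL2L13 (0.24) and BNIP1 (0.34). Without si-NC replicate 2, BCL2L13 (adjusted p = 0.0359) and BNIP1 (adjusted p = 0.0404) were called higher by edgeR, and without si-NC replicate 1 BNIP3 was called lower (adjusted p = 0.0337). BCL2L10, BIK and BCL2L15 had at most 9 counts in any sample and BCL2L14 had 0, and these 4 genes were not tested. A count of 3 corresponded to 0.167 to 0.192 CPM in these samples.

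The genes around the family were taken as lists of caspases, inhibitor of apoptosis (IAP) genes, death receptor genes, mitochondrial death factors, binding partners and upstream factors. Of 57 entries tested, 15 rose and 10 fell, where 18.4% of all genes rose and 17.5% fell, and their median log2 fold change was 0.14 where that of all genes was -0.00. These lists were chosen with earlier results known. The list of partners held 7 genes that rose and 1 that fell of 12, against 18.4% and 17.5% of all genes. DYNLL2, the dynein light chain that holds BMF in the cytoskeleton, had 849, 950 and 868 counts in si-NC and 1636, 1674 and 1913 in si-METTL16 (log2 fold change 1.01, adjusted p = 1.83e-04 by edgeR's quasi-likelihood test). For its paralogue DYNLL1, which holds BIM, the log2 fold change was 0.13 with an adjusted p of 0.101 by edgeR. The 14-3-3 genes encode proteins that bind phosphorylated BAD, and 5 of the 7 genes of this family rose by edgeR, where 18.4% of all genes rose. They were YWHAH (0.94, adjusted p = 3.16e-04), SFN (0.84, adjusted p = 2.05e-04), YWHAQ (0.41, adjusted p = 0.00476), YWHAG (0.28, adjusted p = 0.00483) and YWHAZ (0.25, adjusted p = 0.0203), whereas YWHAB and YWHAE were not called. The YWHAZ call was lost without si-NC replicate 3 (adjusted p = 0.0562) or si-METTL16 replicate 3 (adjusted p = 0.0580, edgeR). YWHAH stayed called with each sample left out. SFN, YWHAQ and YWHAG were named after their values were seen, and their calls were not followed with samples left out. HUWE1, a ubiquitin ligase of MCL1, fell by 0.18 on the log2 scale (adjusted p = 0.0407 by edgeR), a call lost on leaving out any sample but si-METTL16 replicate 2. FBXW7, another ubiquitin ligase gene acting on MCL1, went the other way and rose by 0.52 (adjusted p = 0.00916 by edgeR). USP9X, also of the list of partners, was not called (0.14, adjusted p = 0.126 by edgeR). FBXW7 and USP9X were named after their values were seen and were not followed with samples left out.

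Of 7 IAP genes tested, 3 fell and 1 rose, against 17.5% and 18.4% of all genes. BIRC3, which encodes cIAP2 and is a target of NF-kB, had 2840, 2833 and 2909 counts in si-NC and 750, 1000 and 1082 in si-METTL16 (log2 fold change -1.56, adjusted p = 2.16e-04 by edgeR's quasi-likelihood test). BIRC7 (-1.20, adjusted p = 0.0122) and XIAP, the direct inhibitor of caspases (-0.50, adjusted p = 0.00574), also fell by edgeR. BIRC5, which encodes survivin and peaks in dividing cells, rose by 1.00 on the log2 scale (adjusted p = 0.00698 by edgeR).

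Among the caspase genes tested, the inflammatory CASP4 (-0.69, adjusted p = 0.00588) and the apoptosome caspase CASP9 (-0.41, adjusted p = 0.0158) fell by edgeR. The CASP9 call was lost without si-NC replicate 3 (adjusted p = 0.0524 by edgeR). Of 10 death receptor genes, 3 rose and 2 fell, which is 5 called where 35.9% of all genes were. TNFRSF10B, a receptor for TRAIL, fell by 0.63 on the log2 scale (adjusted p = 0.00308 by edgeR), and TNFRSF10A, the other death-inducing TRAIL receptor gene, rose by 0.30 (adjusted p = 0.0402 by edgeR). The TNFRSF10A call lay near the threshold, was named after its values were seen and was not followed with samples left out. RIPK1 fell (-0.26, adjusted p = 0.0191), and TNFRSF1A (0.32, adjusted p = 0.0285) and the decoy receptor gene TNFRSF10D (0.44, adjusted p = 0.0358) rose by edgeR. The calls of TNFRSF1A and TNFRSF10D held in 1 of the 6 settings that leave out a sample, and that of RIPK1 in 4 of 6, lost without si-NC replicate 3 or si-METTL16 replicate 3. TNFRSF1A held without si-NC replicate 3 and TNFRSF10D without si-NC replicate 1. Of 10 entries for mitochondrial factors, only AIFM1 (-0.35, adjusted p = 0.00267) and VDAC3 (0.39, adjusted p = 0.00812) were called by edgeR, where 35.9% of all genes were. The upstream factors E2F1 (1.67, adjusted p = 2.14e-04) and JUN (0.95, adjusted p = 3.41e-04) rose and SP1 (-0.28, adjusted p = 0.0106) fell by edgeR. These were the only calls of 11 upstream factors tested, where 35.9% of all genes were called.

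**Figure D5:**
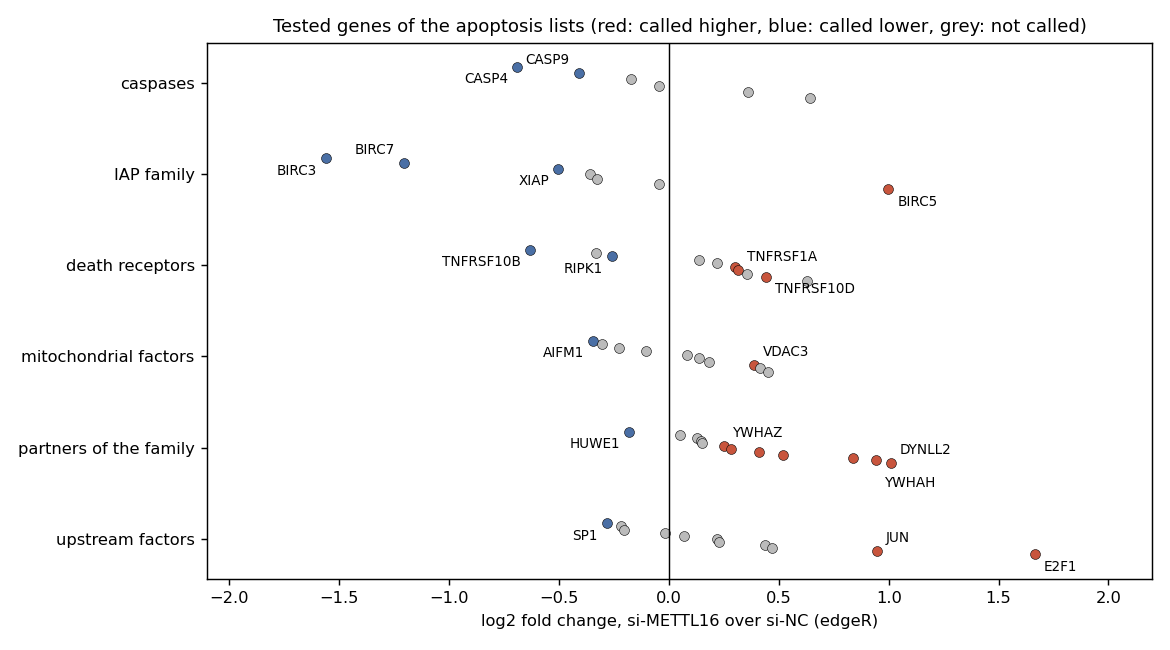
Log2 fold change of si-METTL16 over si-NC for the tested genes of 6 apoptosis lists but for 1 caspase gene, each point a gene, with calls in red (higher) and blue (lower) and genes not called in grey. BIRC3 at -1.56 is the lowest point and E2F1 at 1.67 the highest. Of the 12 partner genes 11 lie above 0, where 7475 of all 15089 genes tested did.

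The genes whose 6 values were most like those of BMF were found by the Euclidean distance of log2 CPM, each gene taken relative to its own si-NC mean, over the 6 samples. They were ANXA9 (distance 0.259), TRIM32 (0.532), NR0B2 (0.640), GACAT2 (0.705) and TJP3 (0.732). TRIM32 had 485, 522 and 514 counts in si-NC and 66, 73 and 82 in si-METTL16. ANXA9 had 93, 103 and 98 counts in si-NC and 13, 11 and 16 in si-METTL16. NR0B2 was read 11, 16 and 14 times in si-NC and listed at 0 in si-METTL16. Its log2 fold change from the fit was -6.77, and that of GACAT2 -3.18, against -2.69 for BMF. The log2 CPM behind the distances carried a prior count of 2, which shrinks a drop at counts this low. This likeness is a description over 6 samples, and with a fold change this low it was set mainly by the difference between the groups.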

How the data were processed

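RNA of 6 PANC-1 cultures was sequenced, 3 si-NC and 3 si-METTL16. The authors deposited 1 table with raw read counts per gene and FPKM values per gene, the latter scaled by the authors to gene length and library size. The submitters' processing notes name HISAT2 2.0.4, StringTie 1.3.0 and GRCh38 (hg38), without a role for each. The lengths behind the FPKM and the use of strand were not given in the sources used here.

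Counts were tested with edgeR 4.0.16 (R 4.3.3): filterByExpr (minimum count 10, minimum total count 15), TMM factors, the quasi-likelihood test, and Benjamini-Hochberg adjustment over the 15089 genes kept. The biological coefficient of variation was 16.5%. In a simulation of this comparison on 15089 genes, 65 of 100 genes changed by a log2 fold change of 1 and 82 of 100 changed by 2 were called, with 14 false calls. No other genes were changed in the simulation, whereas 35.9% of genes were called in the data. The adjustment depends on that share, so the simulated shares are not the power of the real comparison. Settings with 1 sample left out kept 2 samples in that group. Total counts ran from 15725298 to 18054436 per sample, and floors and intervals cover counting error or the spread between these samples only. No samples were duplicates (lowest chi-square per degree of freedom 15.6).

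DESeq2 1.42.0, limma 3.58.1 and other filters served as alternatives. FPKM were summed by role, and for limma on FPKM pseudocounts of 1 and 0.1 were used, with genes under a mean of 1 FPKM dropped. Positions of members are those of the table, and 7 of 10 were identical in GENCODE 44. siRNA targets came from the study's supplementary list, and promoters from RefSeq, in which 9 of 10 members were matched. The members and lists were chosen with earlier results of these data known. Named genes were METTL16, the members, every further family gene that passed the filter, the 2 highest and 2 lowest called genes of each apoptosis list, and the 5 genes nearest to BMF. DYNLL1, FBXW7, USP9X, SFN, YWHAB, YWHAE, YWHAG, YWHAQ, TNFRSF10A, MIR4435-2HG and BAK1P1 were named after their values were seen. For 1 gene of the caspase list, values are not reported here, though it is included in the counts over all lists. DIABLO has 2 entries in the table, and each was tested.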

Additional observations from a re-analysis of the deposited data

How the results depend on the processing

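METTL16 and the counts of genes called stayed within 1.5 times of the reported value under all 14 alternatives. These included DESeq2, limma on voom weights or on FPKM, and other filters and scalings. The members called were 3 or 4 of 10, the further family genes 2 to 4 and the apoptosis list genes 20 to 26. Over all genes the count ran from 4159 to 5487. Not every further family gene was tested in each alternative, and the genes behind a count could change. Without si-NC replicate 2, 3 further family genes were called, and only 1 of them was among those called with all 6 samples. The counts of members include BMF, which was chosen for its fold change. BBC3 and BCL2L1 were called in 14 of 14, and BCL2L11, PMAIP1, BID, BAD, BAX and BAK1 in 0 of 14. MCL1 was called in 7 of 14, and beyond the samples named above it was lost with no filter on low counts (adjusted p = 0.0715 by edgeR) and with limma on log2(FPKM + 1) (adjusted p = 0.0504) or log2(FPKM + 0.1) (adjusted p = 0.0515). BNIP3 was called by DESeq2 (adjusted p = 0.0232), besides the settings that leave out a control sample given above for BNIP3, BCL2L13 and BNIP1. Scaling moved the median of all genes by under 0.1.

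Same-numbered samples correlated at 0.0253, 0.0371 and 0.0298 in their deviations from the group means. Differently numbered samples ran from -0.0388 to 0.00827, so each same-numbered value was higher than all of those. As all the correlations were small, the numbers were not taken as pairs. With the replicate number as a block, 5013 genes were called. Of the members taken in by family, BBC3, BCL2L1 and MCL1 were again those called. The block brought BNIP3 under the threshold (adjusted p = 0.0254 by edgeR) and turned the direction of BCL2L2 (0.041). With samples left out in turn, the log2 fold change of BCL2L2 ran from -1.46 to 0.90, with 0.11 without si-METTL16 replicate 2. That of HRK ran from -0.37 to 0.37, with -0.15 without si-NC replicate 2. That of BNIP3L ran from -0.33 to 0.12. None of these 3 genes was called in any setting. The cause was not tested. Low counts limit the precision of HRK (9 to 22 counts) and BCL2A1 (25 to 100 counts).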

Other observations

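Some genes spread across the samples in ways that the groups did not follow. The 5 genes whose values lay nearest to those of BCL2L11, chosen after its values were seen, were AL162595.1, HKR1, AC008764.4, PRKAR1A and AL137129.1, at distances of 0.929 to 1.27. PRKAR1A, which encodes a regulatory subunit of protein kinase A, had 1877, 4665 and 2251 counts in si-NC and 4588, 4523 and 2519 in si-METTL16. HKR1, a zinc finger gene, had 293, 468 and 426 counts in si-NC and 997, 880 and 337 in si-METTL16. None of the 5 was called by edgeR. YWHAB and FOXO3 were also named after their values were seen. YWHAB, a 14-3-3 gene, had 2558, 7289 and 6937 counts in si-NC and 7723, 2726 and 7852 in si-METTL16, a log2 difference of 0.15 with an adjusted p of 0.829 by edgeR. FOXO3, a regulator of BCL2L11 and BBC3, had 2444, 1348 and 1474 counts in si-NC and 1545, 1345 and 2564 in si-METTL16.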
